A study of Mus musculus with 12 samples.

Results

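The oncofetal genes Igf2bp1, Igf2bp2, Igf2bp3, Lin28a, Lin28b, Hmga1 and Hmga2 were followed in mouse lung tumors and normal mouse lung. These 7 members were taken by symbol from the 30399 genes of the table, and all of them were found. They were chosen by gene family, with the measured tumor against normal lung fold changes of these same libraries already in view, in which Igf2bp1 had been seen to be lower in tumors. Their values in that contrast are therefore given as a description, with no p-value. All 7 had a mean normalized count of at least 1 over the libraries, the limit for testing.

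RNA sequencing of poly-A RNA was done on 5 normal lungs and 7 tumors from a study that made mouse lung cancer models by nonviral CRISPR/Cas9 mutagenesis, in which a nuclease guided by a short RNA disrupts chosen genes. The labels give only the tissue, so the strain, age, genotype and edited genes of each group are not given in the sources used here, nor is any agent given to the normal mice. Tumors 3 and 4 share a title number (159), as do tumors 5, 6 and 7 (201), so the 7 tumors carry 4 distinct numbers (tumor 1 has 153 and tumor 2 has 156). The titles of tumors 1 and 7 carry a word for trachea and those of tumors 3, 4, 5 and 6 a word for lung, while tumor 2 has neither. Nothing states that the libraries came from separate animals, so p-values measure only the spread between these samples, which may be technical.

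The normal lung libraries held 11126432 to 17032234 reads counted on genes, and the tumor libraries 13093843 to 24217633. A gene with 3 reads has a normalized count of 4.85 or less in normal lung and of 3.57 or less in tumors. Values under these limits are not ranked, and the limits cover counting error only. The summed level of 10 neuroendocrine markers was 204 to 261 normalized counts in normal lung against 32626 to 127853 in tumors. The sum of 10 lung epithelial markers differed the other way, at 284219 to 508569 in normal lung against 794 to 3259 in tumors, and that of 7 endothelial markers was 62605 to 72430 against 2470 to 7437. The sum of 7 proliferation markers was 1281 to 2705 in normal lung and 19478 to 44727 in tumors. Tumor 7 stood apart from the other tumors in leukocyte markers (88708, next highest 24631) and heart muscle markers (37116, next highest 2491), over 9 and 5 measured genes. It also had the highest sum of 8 measured mesenchyme markers, of fibroblasts, smooth muscle and pericytes (28768, next highest 15784). That sum was 12771 to 25721 in normal lung. No marker of these lists was at 0 in every tumor. Among normal lungs 4 of 5 had Y-linked transcripts at a mean log2(normalized count + 1) over 5, but 1 of 7 tumors did. The share of libraries at this level thus also differed between the groups. Tumors 3 and 4 had low levels (0.50 and 1.48).

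LIN28A and LIN28B are RNA-binding proteins that bind precursors of the let-7 microRNA. LIN28A recruits uridylyltransferases that mark these precursors for decay. Mature let-7 is abundant in adult tissue, and it represses messenger RNAs that carry matches to its seed in their 3′ untranslated regions (UTRs), Lin28, Hmga2 and Igf2bp1 being classic examples. IGF2BP proteins bind messenger RNAs, many of them carrying the m6A base modification, and stabilise them or hold back their translation. HMGA proteins bind AT-rich DNA and bend it so that transcription factors can assemble. These genes are active in the embryo, several of them are silent or low in most adult tissues, and some are expressed again in tumors, which gave them the name oncofetal.

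The shared let-7 seed and the places where the members carry its complement are shown because they link the 3 families. Mature miRNA sequences are from RefSeq (build GRCm38.p6), in which 11 mature names from 13 loci carry the seed GAGGUAG at bases 2 to 8. Capitals mark the seed in these 4 examples.
mmu-let-7a-5p: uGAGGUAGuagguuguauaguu
mmu-let-7d-5p: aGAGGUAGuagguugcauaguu
mmu-let-7g-5p: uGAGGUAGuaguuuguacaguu
mmu-miR-98-5p: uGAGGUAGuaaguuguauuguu

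The complement CTACCTC was searched on the sense strand of the longest annotated 3′ UTR of each gene (GENCODE M21, build GRCm38). It was present in all 7 members, against 1897 of 20998 genes (9.03%). Igf2bp1, Lin28b and Hmga2 held 4 matches each, and these 3 members are among only 12 genes with 4 or more. Lin28a held 2, and Igf2bp2, Igf2bp3 and Hmga1 held 1 each. Long UTRs hold more matches by length alone. Among genes with a 3′ UTR of similar length the share with at least 1 match was 36.1% for Igf2bp1 (6337 bases), 22.7% for Lin28b (4445 bases), 14.5% for Hmga2 (3014 bases) and 8.46% for Hmga1 (1183 bases). A match is a description of the letters and does not show that let-7 acts there. The match nearest the stop codon of each member is printed here with its flanks, 5′ to 3′, with the seed complement in capitals.
Igf2bp1: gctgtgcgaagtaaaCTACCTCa
Igf2bp2: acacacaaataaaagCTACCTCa
Igf2bp3: tgcatttttactcaaCTACCTCa
Lin28a: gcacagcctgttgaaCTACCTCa
Lin28b: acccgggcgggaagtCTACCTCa
Hmga1: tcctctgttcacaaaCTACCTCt
Hmga2: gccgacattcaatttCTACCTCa

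The Lin28b and Hmga2 matches shown lie close to the stop codon, at bases 36 to 42 and 58 to 64 of the UTR. Those of Igf2bp1 and Igf2bp2 lie further in, at bases 1715 to 1721 and 1313 to 1319. The match was followed by an A, which many functional let-7 sites carry, in each of these sequences except that of Hmga1. Among the matches not shown, none of those in Lin28b and Hmga2 was followed by an A, nor was match 4 of Igf2bp1. Matches 2 and 3 of Igf2bp1 and match 2 of Lin28a were.

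Across the members, Igf2bp1 and Igf2bp2 were lower in every tumor than in any normal lung, and Lin28b and the reads assigned to Hmga1 were higher. Lin28a was above all normal lungs in 6 of 7 tumors and overlapped in tumor 2. Igf2bp3 and Hmga2 also overlapped between the groups, as did Hmga1 when summed with its near-identical copy, Hmga1b. In the limma fit over 23674 genes (Benjamini-Hochberg adjusted p under 0.05), 3 members were called higher and 2 lower. The background was high, since 61.5% of all genes tested were called, 31.4% higher and 30.1% lower, and because the members were chosen with this contrast in view nothing is read from their count. The groups did not overlap for 4 members, of which Lin28b and Hmga1 were above and Igf2bp1 and Igf2bp2 below. Of all genes tested 38.4% did not overlap, with tumors above for 20.1% and below for 18.4%. In bulk tissue, fewer cells of a type and less RNA per cell cannot be told apart.

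**Figure D1:**
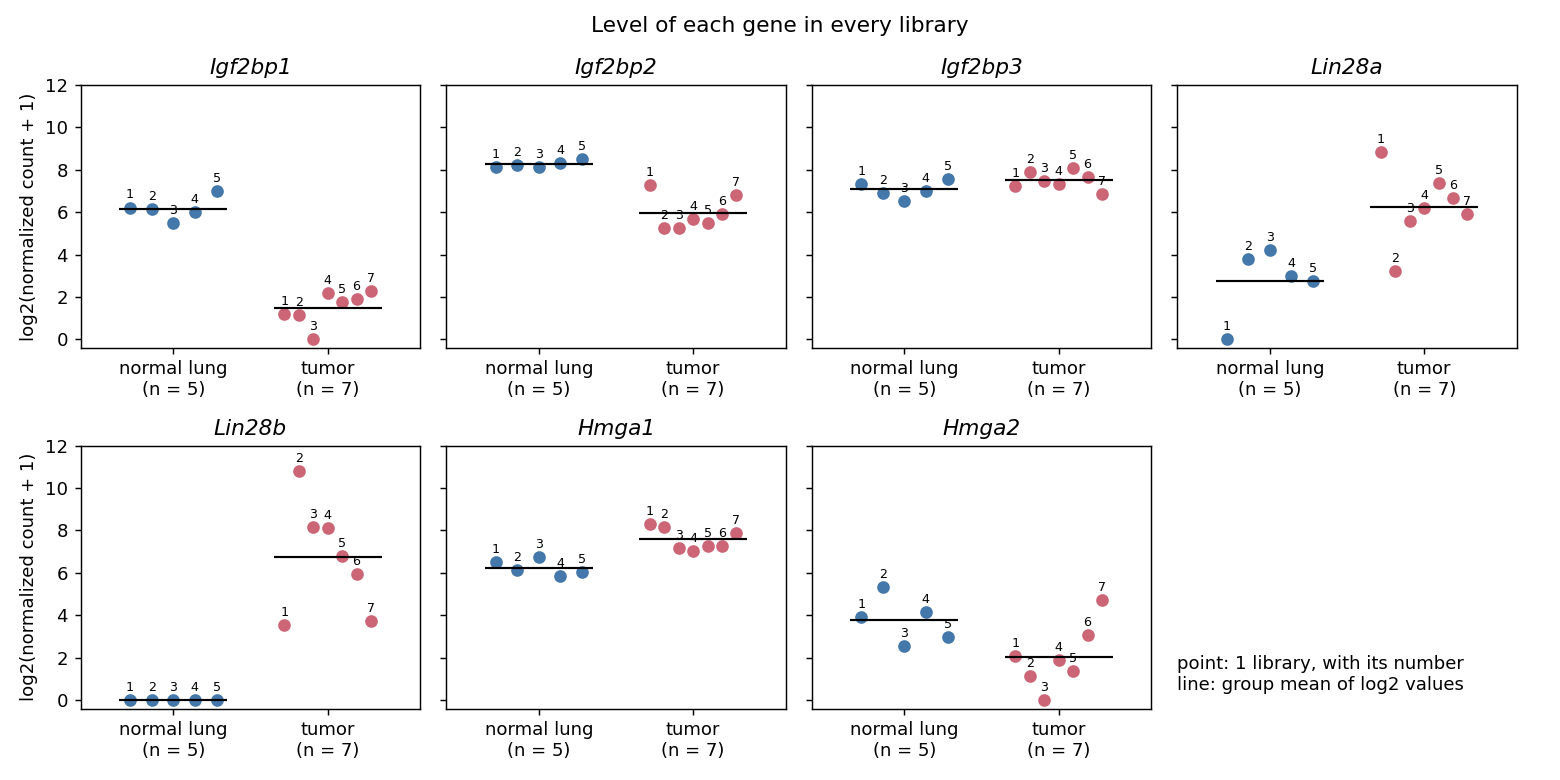
Level of each member as log2(normalized count + 1) on the vertical axis in every normal lung (n = 5, blue) and tumor (n = 7, red); each point is 1 library with its number and lines are group means of the log2 values. Igf2bp1 and Igf2bp2 sit lower in all 7 tumors, Lin28b is at 0 in all 5 normal lungs, and Lin28a and Lin28b are the most widely spread in the tumors.

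Among the IGF2BP genes, Igf2bp1 encodes the family member most closely tied to fetal tissue. Normal lungs 1 to 5 had 73.5, 68.8, 43.6, 63.5 and 126 normalized counts of it, whereas tumors 1 to 7 had 1.27, 1.19, 0, 3.59, 2.43, 2.70 and 3.84. Every tumor lay below every normal lung. The tumor values rest on 20 reads in all, with between 0 and 6 in a library, so their order carries no weight. The mean was 75.2 ± 30.8 (SD, n = 5) in normal lung and 2.14 ± 1.39 (SD, n = 7) in tumors, with a log2 fold change on the log2(value + 1) scale of -4.67 (SE 0.44) and of -5.55 with a pseudocount of 0.1. Since the tumor mean lies under the 3-read limit of 3.57, the fold is given as a bound, and the normal mean was at least 21.0-fold higher than that limit.

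Igf2bp2, the member with the broadest adult expression, showed the same direction with a smaller size. Normal lungs 1 to 5 lay in a narrow range, with 276, 302, 275, 317 and 359 normalized counts. Tumors 1 to 7 had 154, 36.9, 36.7, 49.4, 44.5, 59.3 and 110. Tumors 1 and 7, the trachea-titled ones, were the highest tumors and still lay below all normal lungs. The mean fell from 306 ± 34.7 (SD, n = 5) to 70.1 ± 44.8 (SD, n = 7), 4.36-fold lower, with a log2 fold change of -2.31 (SE 0.35). For the lung epithelial and endothelial marker sums, too, each tumor lay below all normal lungs. Their part in the lower Igf2bp1 and Igf2bp2 levels was not tested.

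Igf2bp3, a paralog often expressed again in carcinomas, behaved differently from both. Normal lungs 1 to 5 had 161, 119, 92.1, 127 and 187.4 normalized counts, and tumors 1 to 7 had 151, 239, 174, 162, 269, 202 and 114. The groups overlapped, with 3 tumors (2, 5 and 6) above all normal lungs and none below. The log2 fold change was 0.43 (SE 0.25). Of its exonic bases, 1529 (18.7%) are shared with Malsu1 on the opposite strand, whose mean was 302 in normal lung and 316 in tumors. Since the use of strand in counting is not given in the sources used here, reads of the 2 genes over that stretch cannot be told apart.

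The makeup of the family therefore differed between the groups. Per kb of annotated exon, the 3 genes summed to 65.9 ± 11.5 (SD, n = 5) normalized counts in normal lung and 32.6 ± 5.44 (SD, n = 7) in tumors. Igf2bp2 made up 63.3% ± 5.58 (SD, n = 5) of this sum in normal lung and 28.8% ± 16.2 (SD, n = 7) in tumors. Igf2bp3 made up 25.3% ± 3.62 (SD, n = 5) in normal lung and 70.5% ± 16.4 (SD, n = 7) in tumors, while Igf2bp1 went from 11.4% ± 2.58 to 0.70% ± 0.53. Tumors 1 and 7 kept the lowest Igf2bp3 shares among tumors, at 46.9% and 47.8%, and the other tumors lay between 73.8% and 85.2%. In the plot of family shares, these 2 tumors show as the pair with a near-even division between Igf2bp2 and Igf2bp3.

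**Figure D2:**
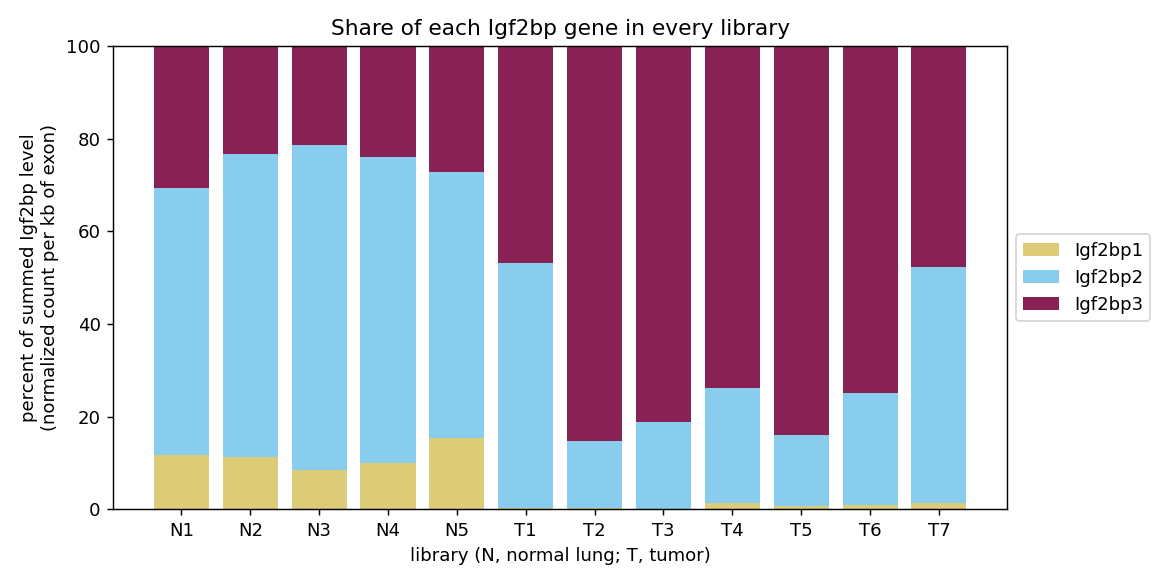
Percent of the summed Igf2bp level (normalized count per kb of exon) taken by Igf2bp1, Igf2bp2 and Igf2bp3 in each normal lung (N1 to N5) and tumor (T1 to T7). Igf2bp3 takes 46.9% to 85.2% of the sum in the tumors and Igf2bp1 at most 1.38% there.

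Of the LIN28 genes, Lin28a encodes the form best known from embryonic stem cells. Normal lungs 1 to 5 had 0, 12.9, 17.8, 7.05 and 5.75 normalized counts, which rest on 33 reads in all. Tumors 1 to 7 had 451, 8.34, 47.6, 71.8, 166, 99.1 and 58.3. Tumor 1 was the highest and tumor 2 lay within the normal range, so 6 of 7 tumors were above all normal lungs. The mean was 8.69 ± 6.84 (SD, n = 5) against 129 ± 150 (SD, n = 7), 14.8-fold higher, and 8.64-fold higher without tumor 1. The log2 fold change was 3.49 (SE 0.88), 2.80 without normal lung 1, the library at 0, and 4.23 with a pseudocount of 0.1. An opposite-strand transcript, Gm13061, shares 234 of the exonic bases (5.86%).

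Lin28b, the paralog more often expressed in adult cancers, was listed at 0 in all 5 normal lungs. Tumors 1 to 7 had 10.8, 1781, 284, 280, 109, 61.3 and 12.2 normalized counts, from 17 to 1495 reads, so all 7 tumors had it above the depth limit. Tumor 2 was the highest by far, and the trachea-titled tumors 1 and 7 were the lowest. The tumor mean of 363 ± 636 (SD, n = 7) was at least 74.8-fold higher than 3 reads in the shallowest normal library. Tumor 2 carries this mean, and without it the mean of 126 was 26.0-fold above that limit. Tumors 1 and 7 alone were 2.22-fold and 2.51-fold above it. No stretch of 100 bases in Lin28b is shared with another annotated gene.

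Tumor 1, the highest for Lin28a, was the lowest for Lin28b, and tumor 2, the highest for Lin28b, was the lowest for Lin28a. Per kb of exon, Lin28b made up 98.9% of the 2 genes' sum in tumor 2 and 1.04% in tumor 1. Within title number 159 it made up 72.4% and 63.2% (tumors 3 and 4), and within number 201 it made up 22.5%, 21.4% and 8.43% (tumors 5, 6 and 7). The summed level ranged from 15.9 in tumor 7 to 199 in tumor 2 and exceeded that of every normal lung, where the highest was 4.45. The spread of Lin28b among tumors (SD of 2.59 on the log2 scale) was larger than that of 98.4% of genes tested, and that of Lin28a (1.72) larger than 92.7%. Igf2bp3, with an SD of 0.42, varied less among tumors than the median gene (0.63).

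**Figure D3:**
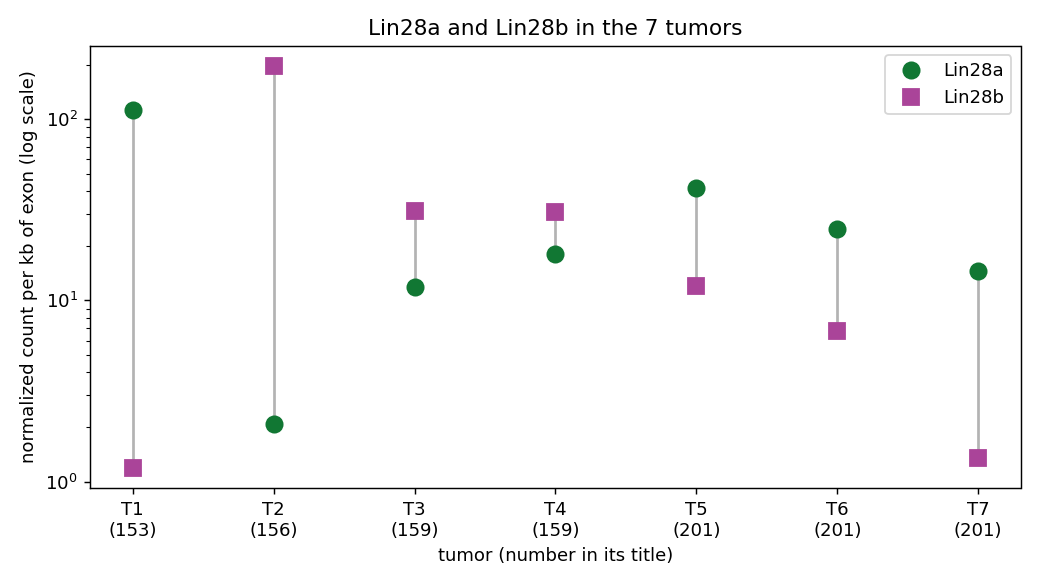
Lin28a (circles) and Lin28b (squares) in normalized count per kb of exon, on a log axis, in tumors T1 to T7 with the number of each tumor's title below. Lin28b exceeds Lin28a in tumors 2, 3 and 4, and Lin28a exceeds Lin28b in tumors 1, 5, 6 and 7.

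Hmga1, which encodes the HMGA protein more widely kept in dividing cells, had a normalized count of 89.0, 69.9, 105, 56.4 and 64.4 across normal lungs 1 to 5. Tumors 1 to 7 had 311, 288, 143, 129, 155, 153 and 232. All tumors were above all normal lungs, by a mean of 2.62-fold (76.9 ± 19.7, SD, n = 5, against 202 ± 74.8, SD, n = 7) and a log2 fold change of 1.33 (SE 0.28). This gene has a nearly identical copy, Hmga1b, a single-exon gene of 1626 bases that matches the Hmga1 transcript in 1599 of 1602 aligned bases (99.8%). Of all 150-base stretches of Hmga1, 30.1% also occur in Hmga1b, so counts of both genes are uncertain.

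Hmga1b took more reads than Hmga1 in each of the 12 libraries, since normal lungs 1 to 5 had 429, 515, 778, 609 and 390 normalized counts of it and tumors 1 to 7 had 892, 1596, 753, 361, 411, 301 and 714. Its groups overlapped. Hmga1 took 12.7% ± 3.21 (SD, n = 5) of the counts of both in normal lung and 24.2% ± 6.54 (SD, n = 7) in tumors. With both genes summed the groups were not separate, and the log2 fold change was 0.43 (SE 0.33). The groups were thus separate for reads assigned to Hmga1 and not for the sum.

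**Figure D4:**
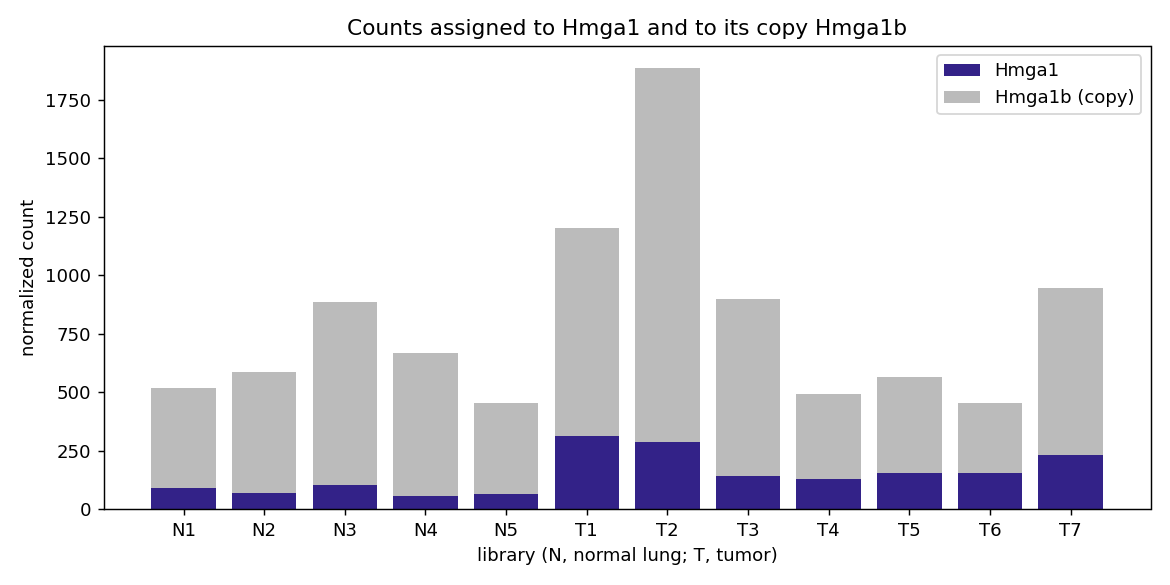
Normalized counts assigned to Hmga1 (dark) and to its near-identical copy Hmga1b (grey), stacked, in each normal lung (N1 to N5) and tumor (T1 to T7). The Hmga1 part is at most 105 in normal lung and at least 129 in tumors, whereas the stacked sums overlap between 454 and 883 in normal lung and 454 and 1885 in tumors.

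Hmga2, the HMGA gene most closely tied to let-7 and largely silent in adults, was low throughout. Normal lungs 1 to 5 had 14.2, 39.8, 4.85, 16.9 and 6.90 normalized counts, and tumors 1 to 7 had 3.17, 1.19, 0, 2.69, 1.62, 7.41 and 25.6. Of the tumors, 5 lay below all normal lungs, while tumors 6 and 7 lay within their range. The log2 fold change was -1.75 (SE 0.73). It was -2.20 without tumor 7, -1.37 without normal lung 2 and -1.11 with edgeR on 11 libraries. Tumor 7 also had the highest leukocyte, heart muscle and mesenchyme marker sums and the lowest neuroendocrine and proliferation sums of the tumors. Their part in its Hmga2 level was not tested.

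Ordered by level per kb of exon, the members ranked differently in the 2 groups. In normal lung Igf2bp2 (37.1 to 48.5) and Hmga1 (26.6 to 49.4, without the reads assigned to Hmga1b) were the highest and overlapped. Igf2bp3 (11.3 to 23.0) and Igf2bp1 (4.504 to 13.1) followed and also overlapped. Hmga2 (0.715 to 5.87) and Lin28a (0 to 4.45) did not separate from each other, and Hmga2 overlapped with Igf2bp1 too. In tumors Hmga1 (60.9 to 146.3, without the reads assigned to Hmga1b) lay above Igf2bp3 (14.0 to 32.9) without overlap. Lin28a in tumor 1 (113) lay within the Hmga1 range and Lin28b in tumor 2 (196) above it. Lin28a (2.09 to 113), Lin28b (1.19 to 196) and Igf2bp2 (4.96 to 20.8) overlapped with Igf2bp3 and with one another. Hmga2 (0 to 3.78) overlapped with Lin28a and Lin28b, and in tumor 7 it was above Lin28b (3.78 against 1.34). The tumor values of Igf2bp1 (0 to 0.397) and most of those of Hmga2 rest on too few reads for an order between them.

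The titles allow another comparison that the choice of members did not use, between the 2 trachea-titled and the 4 lung-titled tumors. Lin28b averaged 11.5 ± 0.99 (SD, n = 2) in the trachea-titled and 184 ± 115 (SD, n = 4) in the lung-titled tumors, without overlap. The log2 difference was -3.62 (SE 0.71, limma adjusted p = 0.341). Igf2bp2 was 132 ± 30.9 against 47.5 ± 9.47 (log2 difference 1.46, SE 0.41, limma adjusted p = 0.441) and Hmga1 272 ± 55.4 against 145 ± 11.8 (log2 difference 0.89, SE 0.29, limma adjusted p = 0.492), both without overlap. For Igf2bp3 the trachea-titled tumors lay below the lung-titled ones (log2 difference -0.59, SE 0.34, limma adjusted p = 0.641).

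None of these passed the threshold, and limma called 0 of 23282 genes in this comparison, with 2086 (8.96%) at an unadjusted p under 0.05. By edgeR 0 were called, with 1594 at an unadjusted p under 0.05, and by DESeq2 314, including Lin28b and Igf2bp2 (DESeq2 adjusted p = 0.0012 and 0.0158), both tools on 5 tumors. Over all alternatives the adjusted p ran from 0.0012 to 0.751 for Lin28b and from 0.0158 to 0.751 for Igf2bp2. Groups as small as these stood without overlap in 18.2% of all genes. Lin28a (log2 difference 0.90, SE 0.85) turned to -0.56 without tumor 1, while Hmga2 (1.81, SE 1.06) and Igf2bp1 (0.26, SE 0.78) overlapped. Within title number 201, tumor 7 was lower than tumors 5 and 6 for Lin28b (12.2 against 109 and 61.3) and Igf2bp3 (114 against 269 and 202), and higher for Igf2bp2 (110 against 44.5 and 59.3) and Hmga1 (232 against 155 and 153). Leukocyte, heart muscle and mesenchyme markers were also highest in tumor 7. The endothelial marker sum was 7437 and 6212 in trachea-titled tumors 1 and 7, against 2470 to 5091 in the lung-titled tumors. The proliferation marker sum was lower in these trachea-titled tumors, at 28937 and 19478 against 31088 to 44727. The part of these markers in the differences was not tested.

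For each member the genes with the most similar profile were sought by Pearson's r of log2(value + 1) over the 12 samples among 16468 genes with a mean log2 value of at least 4. The points share the tumor against normal lung difference, so these are descriptions. Igf2bp1 was most like Ism1 (r = 0.994), which encodes a secreted isthmin protein, and Vegfd (r = 0.994), a growth factor for lymphatic vessels. Igf2bp2 was most like Snx33 (r = 0.993), an endosomal sorting nexin, and Tst (r = 0.992), a mitochondrial sulfur transferase. Igf2bp3 was most like Myh10 (r = 0.949), a nonmuscle myosin heavy chain, and Gm26708 (r = 0.917). Lin28b was most like Xpo7 (r = 0.994), a nuclear export receptor, and Trim28 (r = 0.992), a co-repressor of transposable elements. Lin28a was most like Rspry1 (r = 0.926) and Gm3507 (r = 0.919), Hmga1 like Igsf21 (r = 0.952) and Gabbr2 (r = 0.944), and Hmga2 like Gm15289 (r = 0.924) and Gm8532 (r = 0.912).

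The gene lists that follow were chosen with earlier results of these data known. Most genes named from them have the largest changes among the genes called. Their p-values and separation from normal lung follow in part from that choice and are given as a description. Of all genes tested, 31.4% were called higher and 30.1% lower, and nothing is read from the count called in a list. Among 20 genes of let-7 processing and decay, all measured, 13 rose in tumors, 4 fell and 3 were not called. Their median log2 fold change was 0.60 against 0.04 over all genes tested. Tut4, a uridylyltransferase that LIN28A recruits, rose by a log2 fold change of 1.90 (SE 0.21, limma adjusted p = 5.3e-06), whereas its paralog Tut7 was lower at -0.63 (SE 0.15, limma adjusted p = 0.00215). The microprocessor genes Dgcr8 (1.54) and Drosha (1.33), which cut primary miRNA transcripts, rose, as did the helicase gene Dhx9 (1.35) and, by less, Dicer1 (0.56, limma adjusted p = 0.00605), which cuts the precursor. Among the genes that fell were Trim71 (-1.69), a stem-cell gene that is itself a let-7 target, the Argonaute gene Ago4 (-1.31) and Trim25 (-0.98), a ubiquitin ligase that helps TUT4 act on pre-let-7. Dis3l2, the nuclease that degrades uridylated pre-let-7, was not called (0.09, SE 0.20, limma adjusted p = 0.714). Of 18 let-7 host or hairpin genes only 3 were in the table, and limma called 0 of them, also at an unadjusted p under 0.05, as did edgeR and DESeq2 after adjustment. Under equal totals 1 was called higher. Mature let-7 was not analysed here.

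The 24 textbook let-7 targets outside the members went both ways, with 9 higher, 7 lower and 8 not called (median log2 fold change 0.08). Over all genes tested, 31.4% were called higher and 30.1% lower. Rrm2 (4.82, SE 0.50), a ribonucleotide reductase subunit, Igdcc3 (4.46, SE 0.44), an embryonic surface protein gene, Dna2 (3.27, SE 0.19), a DNA replication nuclease, and Mycn (2.48, SE 0.63), a MYC family transcription factor, were the furthest up. Their limma adjusted p-values were at most 0.00382. Ccnd1 (-4.65, SE 0.39) and Ccnd2 (-4.62, SE 0.72), which encode D cyclins, Cdk6 (-2.27, SE 0.68), their partner kinase, and Igf1r (-2.12, SE 0.38), the IGF1 receptor, were the furthest down (limma adjusted p at most 0.0106). The call for Cdk6 was lost with edgeR and DESeq2 on 11 libraries and with a Y-linked covariate. Only 4 of the 24 were lower under equal totals, edgeR, DESeq2 or a Y-linked covariate, each taken alone.

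Mycn and Lin28b were both highest in tumor 2, where Mycn reached 7208 normalized counts against 305 to 698 in the other tumors. In tumors 1, 3, 4, 5, 6 and 7, Mycn was 348, 636, 305, 575, 698 and 425. Lin28b in the same tumors was 10.8, 284, 280, 109, 61.3 and 12.2, so their orders differed. A link between the levels of these genes was not tested. MYC family proteins bind the letters CACGTG, so these were searched on both strands in RefSeq promoter windows from 250 bases before to 50 after each start (GRCm38.p6). They were found in 2187 of 27025 genes (8.09%). Of the 6 members with a window, Lin28b and Igf2bp3 held them. Igf2bp3 also held a further match, beginning 5 bases after the start, which is not printed. The stretches below are on the minus strand, at chr10:45470233-45470262 for Lin28b and chr6:49214960-49214989 for Igf2bp3, with the motif in capitals beginning 49 and 23 bases before the start.
Lin28b: aattgacagagtCACGTGtgctcaggggcc
Igf2bp3: gctgggattcctCACGTGagacgttgattt

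Igf2bp3 was not highest in tumor 2, where it had 239 counts against 269 in tumor 5. These matches describe letters only, and no binding was measured.

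Of 11 measured transcripts classically bound by IGF2BP proteins, 1 rose, 7 fell and 3 were not called, with a median log2 fold change of -1.10. The shares over all genes tested were 31.4% called higher and 30.1% lower. The prostaglandin synthase gene Ptgs2 (-3.67, SE 0.74), the adhesion receptor gene Cd44 (-3.03, SE 0.48), the Hedgehog effector Gli1 (-2.88, SE 0.74) and the co-repressor Tle4 (-2.16, SE 0.40) fell, with limma adjusted p-values of at most 0.0041. Mapk4, an atypical MAP kinase gene, rose (5.15, SE 0.39, limma adjusted p = 1.1e-07). H19, a fetal imprinted RNA, was not called (0.79, SE 1.13, limma adjusted p = 0.565), and its direction was not settled. Its mean was higher in normal lung (148 against 82.9), where normal lung 3 had 699, and the log2 fold change was 2.02 without that library, -0.52 with edgeR, -0.66 with DESeq2 and -1.84 with a Y-linked covariate. Igf2 was not analysed here. Each tumor also lay below all normal lungs in the leukocyte and endothelial marker sums, and their part in these lower levels was not tested.

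Of 19 measured genes for writing, erasing or reading m6A, 9 rose and none was called lower by limma (median log2 fold change 0.37). Limma called 31.4% of all genes tested higher and 30.1% lower. At an unadjusted p under 0.05 the count lower was 0 by limma, and after adjustment edgeR called 0 lower and DESeq2 called 1. The furthest up were Rbm15 (1.32), which guides the methyltransferase, the RNA-binding gene Fmr1 (1.12), the reader Ythdc2 (1.09) and Hnrnpa2b1 (0.98), with limma adjusted p-values of at most 0.00023. Under equal totals 14 were called higher.

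Of 15 measured high mobility group genes outside the HMGA pair, 11 rose and none was called lower by limma (median log2 fold change 0.68). None was lower at an unadjusted p under 0.05 or called lower by edgeR or DESeq2. Among all genes tested, limma called 31.4% higher and 30.1% lower. Hmgb2 (3.06, SE 0.21) and Hmgb3 (2.92, SE 0.33), which encode DNA-bending proteins of dividing and progenitor cells, and Hmgn2 (2.82, SE 0.26) and Hmgn3 (2.44, SE 0.19), which encode nucleosome-binding proteins, were the furthest up. These genes were picked as the largest changes among those called, so their small limma adjusted p-values (at most 5.4e-06) follow in part from that choice. No tumor overlapped the normal lungs for any of them, and tumors lay above without overlap for 20.1% of all genes tested. The proliferation marker sum was also above all normal lungs in every tumor, and its part in these levels was not tested.

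Of 20 other genes known for fetal expression that were tested, 10 rose, 4 fell and 6 were not called, with a median log2 fold change of 1.16. Across all genes tested, 31.4% were called higher and 30.1% lower. Ptn (7.20, SE 0.39), a heparin-binding growth factor, Dlk1 (6.39, SE 0.94), an imprinted surface protein listed at 0 in all normal lungs, Crabp2 (5.75, SE 0.58), a retinoic acid carrier, and Peg10 (5.12, SE 0.49), an imprinted gene of retroviral origin, rose (limma adjusted p at most 6.0e-05). Nes (-4.14, SE 0.57), which encodes the intermediate filament nestin, Gpc3 (-2.95, SE 0.68), a heparan sulfate proteoglycan, and Trim71 fell (limma adjusted p at most 0.00196). Plag1, a transcription factor gene, was called lower (-1.42, limma adjusted p = 0.0373) but lost that call in 14 of 24 alternatives.

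In the IGF axis, which IGF2BP proteins are named for, 3 of 12 measured genes rose, 6 fell and 3 were not called (median log2 fold change -0.44). The background was 31.4% of all genes tested called higher and 30.1% lower. The binding proteins, which hold IGFs away from their receptors or bring them to it, went both ways. Igfbp1 (4.87, SE 0.45), Igfbp5 (2.76, SE 0.40) and Igfals (1.63, SE 0.41), the acid-labile subunit, rose (limma adjusted p at most 0.00382). Igfbp1 was listed at 0 in all normal lungs and at 9.53 to 65.4 in tumors, so the size of its change depends on the pseudocount. Igfbp6 (-6.15, SE 1.05), Igfbp2 (-4.78, SE 0.55) and Igfbp7 (-2.31, SE 0.42) fell along with Igf1r (limma adjusted p at most 0.00035). The plot of the listed genes shows each list beside the median of all genes tested.

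**Figure D5:**
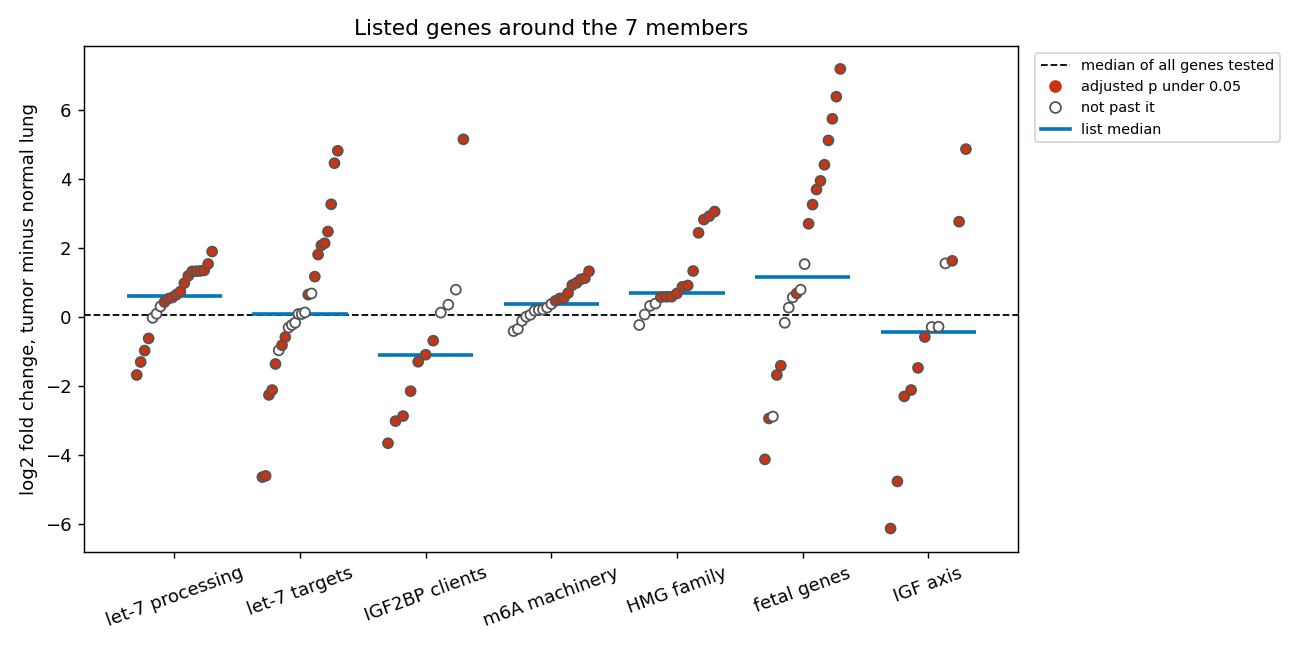
Log2 fold change, tumor minus normal lung, of each tested gene in 7 lists, with filled points for genes at a limma adjusted p under 0.05 and open points for the rest; blue bars are list medians and the dashed line is the median of all genes tested (0.04). Medians run from -1.10 for transcripts bound by IGF2BP proteins to 1.16 for fetal genes, and each list holds genes on both sides of the line.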

How the data were processed

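The deposited table holds a normalized read count signal, which per the submitters' processing notes was made by the authors with featureCounts and DESeq2 on build GRCm39. The aligner, the annotation release, tool versions and the use of strand are not given in the sources used here. Whole reads were recovered from the step size of 11 of 12 columns. Tumor 3 was left out of count tests because its step was too near 1 to be checked. GENCODE M21 named 29982 of 30399 identifiers and left 417 without a symbol.

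Groups follow the tissue label. Genes whose mean value reached 1 (23674) entered a fit of log2(value + 1) in limma 3.58.1 (lmFit, eBayes with a trend, R 4.3.3) and Benjamini-Hochberg adjustment over all of them, since the table holds normalized values rather than raw counts. The comparison of tumors by title word used the same fit on 6 tumors. Alternatives used edgeR 4.0.16 and DESeq2 1.42.0 on the recovered reads, other scalings, filters and pseudocounts, and leaving out each library. All 31 same-group pairs of libraries differed by more than sampling noise (chi-square at least 18.4 times its degrees of freedom). Scripts were tested on simulated data.

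Levels per kb were divided by annotated exonic bases. Figures used Python 3.11.15 and matplotlib 3.10.9. Named genes are the members, up to 4 called genes per list and direction with the largest change, H19, Trim71, Dis3l2 and Dicer1, and the 2 genes most like each member. Of the 59 named besides members, 3 (Ccnd1, Hmgn3 and Gm15289) share over 10% of exonic bases with another listed gene. The members and lists were chosen with earlier results of these data known.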

Additional observations from a re-analysis of the deposited data

Results flagged for a closer look

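Of 131 groups of values tested, 6 held a library far from the rest of its group by Dixon's test, where chance gives about 1 in 20 (6.55). None was a member. Values are log2(normalized count + 1). Tumor 2 was the highest tumor for Mycn (12.82, nearest tumor 9.45) and Crabp2 (8.78, nearest 7.05) and the lowest for Rrm2 (9.05, nearest 11.03). Tumor 1 was the lowest for Gpc3 (4.68, nearest 8.09). Normal lung 3 was the highest normal lung for H19 (9.45, nearest 3.90) and Igfals (6.87, nearest 6.10).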

How the results depend on the processing

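The members' log2 fold changes in tumor against normal lung, given as a description, ran over the alternatives from -5.55 to -4.42 for Igf2bp1, -2.74 to -1.76 for Igf2bp2, 0.30 to 0.64 for Igf2bp3, 2.80 to 4.23 for Lin28a and 5.61 to 11.67 for Lin28b. They ran from 0.43 (summed with Hmga1b) to 1.56 for Hmga1 and from -2.44 (pseudocount of 0.1) to -1.11 (edgeR) for Hmga2, which was -1.22 with DESeq2, -1.30 with a Y-linked covariate and -2.30 without the trachea-titled tumors. Members called higher ran from 3 to 4 and members called lower from 2 to 3. Hmga2 gained a call in 6 of 24 alternatives and Igf2bp3 in 2 of 24. Hmga1 lost its call when summed with Hmga1b. The Hmga1 sum, the Y-linked covariate and limma on 11 libraries were chosen after seeing the data. Genes called in all ran from 11632 to 15258. The median log2 fold change of all genes moved from 0.04 to 0.24 under equal totals (8617 called higher, 6111 lower, against 7430 and 7124), 0.21 with edgeR and 0.14 with DESeq2. Of 384 list counts 13 moved by over 1.5 times, including transcripts bound by IGF2BP proteins called higher (2 without normal lung 3 or tumor 2) and m6A genes called lower (1 without tumor 2 or 3). H19 turned to -0.52 with edgeR, -0.66 with DESeq2 and -1.84 with the Y-linked covariate, and was called higher at 2.02 without normal lung 3. Dis3l2 turned to -0.013 and Mycn lost its call (1.82) with that covariate. In trachea-titled against lung-titled tumors, 92 genes were called with no filter, 314 with DESeq2 and 0 to 290 when leaving out each tumor (290 without tumor 7). Igf2bp1 there turned to -0.081 with edgeR and -0.089 with DESeq2 and ran from -0.29 to 0.81 when leaving out each tumor, and Lin28a ran from -0.56 to 2.37. The cause was not tested. Depth limits the values of Igf2bp1 and Hmga2 in tumors and Lin28a in normal lung. No paired analysis was possible because the groups share no numbers from the labels. Tumors of a shared title number correlated at 0.30 over genes in a fit that let them.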
